A study of Mus musculus with 6 samples.

Results

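The 10 integrin genes described here are Itga1, Itga2, Itga3, Itga5, Itga11, Itgav, Itgb1, Itgb3, Itgb5 and Itgb8, a set named for dermal fibroblasts. The set was chosen by gene and not by a rule on their values, though with earlier results of these data known. These genes are 10 of 21883 protein-coding genes in the RefSeq table of GRCm38.p6. Their accessible regions were the ATAC-seq peaks with the summit inside the gene span or within 50 kb of either end, which gave 200 of 106132 WT peaks and 181 of 98072 KO peaks. At the edge of that window, the last peak inside lay 49.87 kb from Itga3 (KO list, signal percentile 31.2), and the first outside lay 50.25 kb from Itgb5 (KO list, percentile 31.8).

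The cells were cultured mouse dermal fibroblasts, grown in the same serum-containing medium for both genotypes, and each genotype had 3 libraries. Wildtype cells are called WT and cells without Lap2alpha are called KO. Lap2alpha is a splice form of the Tmpo gene that binds A-type lamins in the nucleoplasm, and the study asks how its loss changes chromatin. Strain, age, sex, how the KO was made and whether a line is 1 clone are not given in the sources used here, nor whether libraries came from separate animals. ATAC-seq reads DNA that the Tn5 transposase can reach. Each genotype is represented by 1 combined peak list, so no replicate spread exists and no difference between the genotypes was tested. In such bulk data a smaller share of cells with an open site and a less open site in every cell cannot be told apart. Against the cell label, 11 of 12 fibroblast marker genes had a peak within 1 kb of their start in both lists, the exception being Lum with none in either. The corresponding numbers were 0 of 8 for keratinocyte, 4 of 8 for leukocyte and 2 of 8 for endothelial markers, and Ptprc, Pecam1 and Krt14 had none in either list.

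Integrins are transmembrane receptors made of 1 alpha and 1 beta chain that join the extracellular matrix to the actin cytoskeleton. The alpha chain largely sets the ligand: Itga1, Itga2 and Itga11 encode collagen-binding chains, Itga3 a laminin-binding chain, Itga5 the fibronectin receptor chain, and Itgav a chain for matrix proteins with the RGD motif. Itgb1 encodes the beta chain shared by the collagen, laminin and fibronectin receptors. The chains of Itgb3, Itgb5 and Itgb8 pair with that of Itgav, and several of the receptors so formed bind latent TGF-beta. In the dermis these receptors let fibroblasts hold, pull on and remodel the matrix.

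Most accessible regions at the integrin genes were called in both genotypes, and the regions called in 1 list were mostly weak. A peak counts as shared when it has 1 bp or more in common with any peak of the other genotype. Of the 200 WT peaks 30 were WT-only (15.0%), where 20.4% of all WT peaks and 18.8% of WT peaks in or near any protein-coding gene were. Of the 181 KO peaks 15 were KO-only (8.29%), against 13.4% of all KO peaks and 12.4% of those in or near a gene. In both lists the genotype-only share was therefore below the background, which did not hold for KO-only peaks in the upper 50% by signal (2.83% at these genes against 2.41%). WT-only peaks in the upper 50% numbered 0 at these genes, against 3.49% of all WT peaks there. KO had 90.5% of the WT peak number at these genes but 99.5% of the covered length, with 151 kb in WT and 150 kb in KO. Over all peaks the values were 92.4% and 94.0%. When both lists were held to equal length by taking their peaks of highest signal, 17 peaks each were WT-only and KO-only. These were 11.2% and 11.6% of the integrin peaks kept, against 15.8% and 15.3% of all peaks kept, so under this setting the shares were nearly equal in the genome too.

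The strength of a peak is given here as its signal percentile, its rank by deposited signal within its own list, which rises with peak width. The lists differ in length, so percentiles from the 2 lists are set side by side and a difference between them is not a measured change. WT-only peaks of the integrin genes had a median percentile of 18.7 and ran from 1.16 to 43.2. KO-only peaks had a median of 31.2 and ran from 3.85 to 75.3, and 3 of them lay above percentile 50. Over all peaks the medians were 17.8 for WT-only and 16.5 for KO-only peaks. Shared peaks had medians of 65.9 in WT and 64.3 in KO, above the 59.3 and 55.9 of all shared peaks. None of the 22 WT and 23 KO peaks of these genes in the strongest decile was genotype-only. Strong genotype-only peaks were rare in the genome too: 3.49% of all WT and 2.41% of all KO peaks in the upper 50% by signal. The share over all peaks of the strongest decile was not computed. Of the 30 WT-only peaks, 18 had a KO peak within 1 kb, where 23.5% of all WT-only peaks did. Of the 15 KO-only peaks 3 had a WT peak that near, where 20.4% of all KO-only peaks did.

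By gene, 6 of the 10 had more WT-only than KO-only peaks, 2 had more KO-only peaks and 2 had equal numbers. Over all protein-coding genes treated the same way, 46.7% had more WT-only and 22.9% more KO-only peaks. The median of KO-only minus WT-only peaks was -2 for the integrin genes and 0 for all genes, while the median number of WT peaks per gene was 21 against 9. The integrin windows therefore held more peaks than the typical gene window. The direction by gene was the more common one in the genome.

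**Figure D1:**
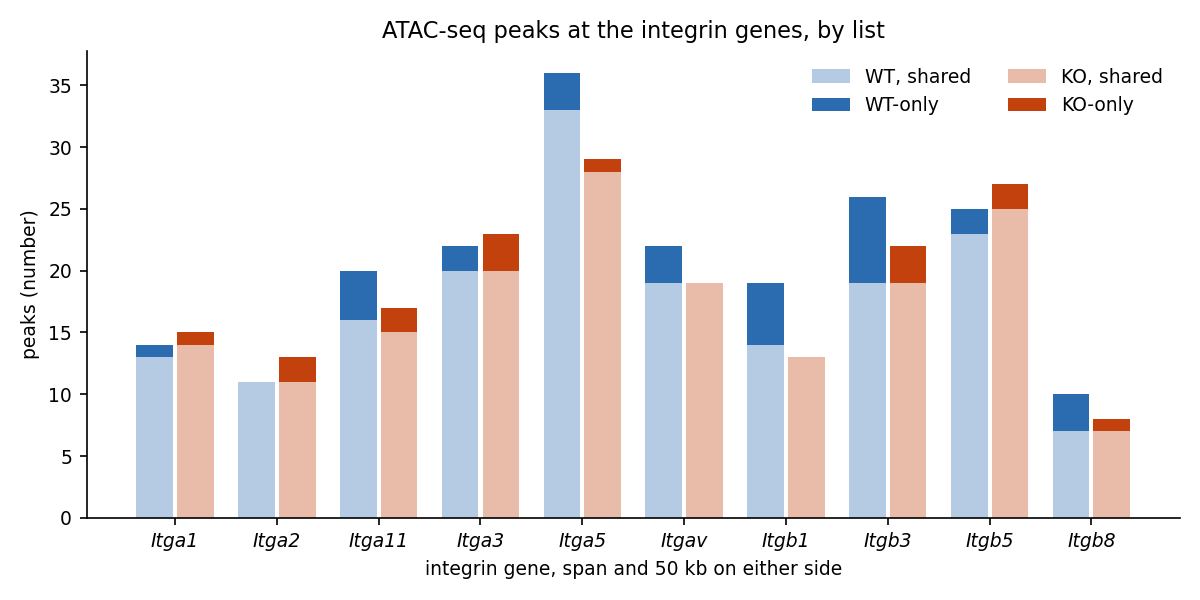
Number of peaks (vertical axis) in the span of each integrin gene and 50 kb on either side, with WT in blue and KO in orange, pale for shared and dark for genotype-only peaks. Itga5 has the tallest bars (36 WT and 29 KO peaks) and Itgb8 the lowest (10 and 8); the dark parts are largest in WT at Itgb3 (7) and Itgb1 (5).

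All 10 integrin genes had a start-site peak in both lists. A start-site peak overlaps 1 kb on either side of an annotated RefSeq start; for Itgb3 and other genes whose start is not in the promoter table, either end of the gene was used. Among all protein-coding genes 55.0% had such a peak in both lists, 2.01% in WT only and 1.08% in KO only. At genes with a start-site peak in both lists, its median percentile was 92.8 in WT and 85.5 in KO for the integrin genes, against 91.6 and 90.2 for all genes.

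These starts ranged from very strong to weak. Itgav and Itgb1 were among the strongest. At Itgav the summit lay 8 bp before the start in WT and 71 bp before it in KO, at percentiles of 98.9 and 97.6; the WT peak of 3605 bp met a KO peak of 2832 bp and a second one of 374 bp farther inside. At Itgb1 it lay 42 bp and 36 bp before the start, at 97.9 and 97.3. These summits lay almost at the start itself in both genotypes. Itga3 had percentiles of 97.3 in WT and 91.6 in KO at the upstream of its 2 annotated starts, while no peak covered the 250 bases before the downstream one. Itgb8 had 93.6 and 85.3, Itga1 84.3 and 85.7, and Itgb3, at its lower end, 86.7 and 78.3. The weakest were Itga2, with 45.1 in WT and 21.6 in KO, and Itga11, with 62.9 in WT. At Itga11 the WT peak of 1053 bp was matched in KO by a pair of narrow peaks of 502 bp and 363 bp at percentiles of 16.4 and 14.4.

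Several starts were divided differently between the lists. At Itgb5 a WT peak of 2058 bp (percentile 92.1) was matched by 2 KO peaks, of 535 bp over the start (46.1) and of 1155 bp just inside the gene (81.7). The start of Itga5 showed the opposite: a single KO peak of 7282 bp (percentile 99.97) overlapped 3 WT peaks of 932, 2878 and 2609 bp (71.4, 98.7 and 97.4). That KO peak was also the widest at any of the 10 genes. Since signal grows with width, the percentile of a fused or divided peak is not a like-for-like value.

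**Figure D2:**
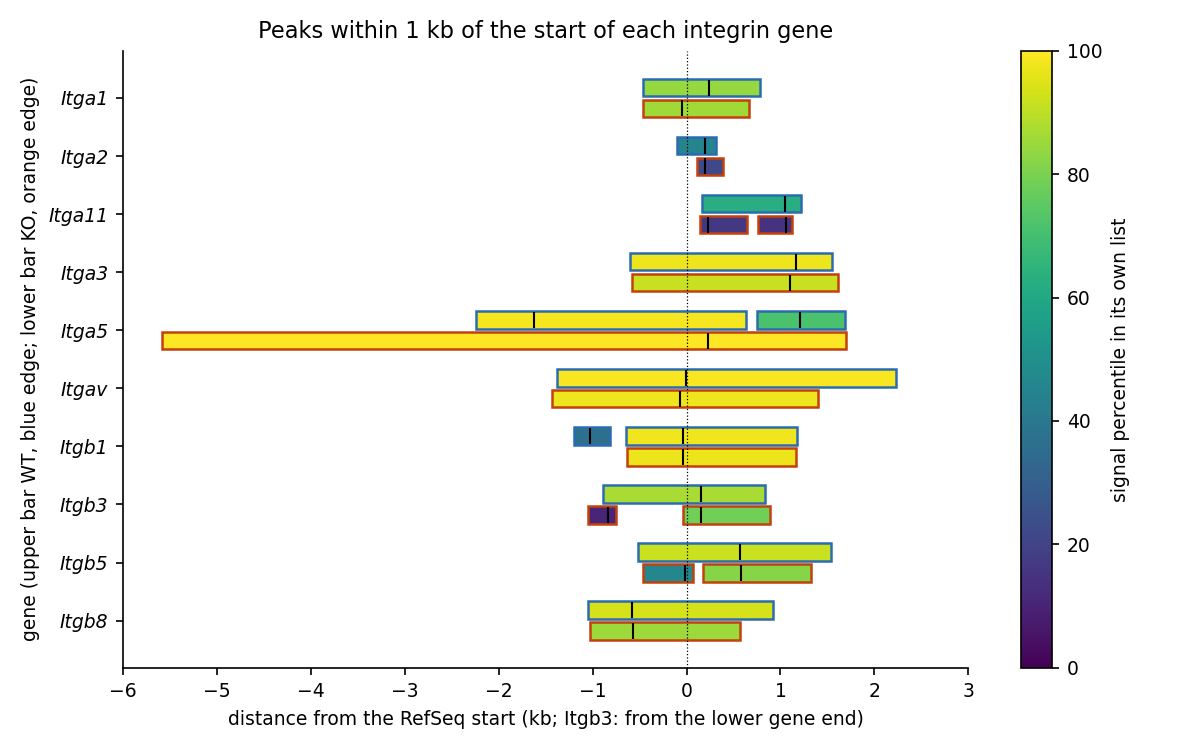
Extent of the start-site peaks of each integrin gene as distance from the start in kb (horizontal axis, gene direction to the right), with WT above (blue edge) and KO below (orange edge), fill colour for signal percentile and a tick at the summit. Itga5 has a single KO bar of 7282 bp, while the bars of Itgb5, Itga11 and Itgb3 are divided in KO.

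The promoters behind these starts are shown for 5 members. They were chosen to set a start peak with a single partner (Itgb1, Itgb8), a fused start (Itga5) and a divided start (Itgb5) beside a start that is hardly covered (Itga2). The windows of Itgb1, Itgb8, Itga5 and Itgb5 all lay wholly inside a peak in both lists. Each sequence is the 250 bases before the RefSeq start in GRCm38.p6, written 5′ to 3′ on the gene's strand, with capitals marking matches to the motifs searched. Itgb1 is at chr8:128685404-128685653 and Itgb5 at chr16:33829415-33829664, both on the plus strand. Itga5 is at chr15:103366792-103367041, Itgb8 at chr12:119238277-119238526 and Itga2 at chr13:114932101-114932350, all on the minus strand.
Itgb1: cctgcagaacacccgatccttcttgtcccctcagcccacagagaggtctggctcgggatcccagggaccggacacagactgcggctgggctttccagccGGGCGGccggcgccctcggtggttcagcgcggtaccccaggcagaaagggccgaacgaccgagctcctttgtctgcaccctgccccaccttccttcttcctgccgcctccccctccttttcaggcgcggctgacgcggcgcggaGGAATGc
Itgb5: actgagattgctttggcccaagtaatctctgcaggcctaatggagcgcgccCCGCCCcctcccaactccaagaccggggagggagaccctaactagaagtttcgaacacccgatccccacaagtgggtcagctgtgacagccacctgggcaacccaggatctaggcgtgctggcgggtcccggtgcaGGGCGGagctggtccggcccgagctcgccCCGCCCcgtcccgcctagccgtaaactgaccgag
Itga5: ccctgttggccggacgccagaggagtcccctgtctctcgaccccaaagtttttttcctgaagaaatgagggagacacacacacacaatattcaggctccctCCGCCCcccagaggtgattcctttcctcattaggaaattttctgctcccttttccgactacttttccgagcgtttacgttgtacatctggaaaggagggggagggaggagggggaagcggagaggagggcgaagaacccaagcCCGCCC
Itgb8: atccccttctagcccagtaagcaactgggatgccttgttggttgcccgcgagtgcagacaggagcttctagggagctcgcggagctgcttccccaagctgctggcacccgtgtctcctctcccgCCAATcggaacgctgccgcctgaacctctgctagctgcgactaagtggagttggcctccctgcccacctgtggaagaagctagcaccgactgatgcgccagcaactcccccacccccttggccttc
Itga2: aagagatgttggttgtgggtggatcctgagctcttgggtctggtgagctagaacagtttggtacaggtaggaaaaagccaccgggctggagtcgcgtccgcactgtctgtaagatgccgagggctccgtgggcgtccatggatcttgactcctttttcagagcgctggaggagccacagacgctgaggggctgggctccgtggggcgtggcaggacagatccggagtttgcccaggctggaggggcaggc

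Promoter windows were found for 9 of the 10 genes, 10 windows in all since Itga3 has 2. Of these 10 windows 7 lay wholly inside a peak in both lists. At Itga2 98 of the 250 bases lay in a WT peak and 0 in a KO peak, and at Itga11 none did in either list, since its peaks began inside the gene. The motifs searched on both strands were the SP/KLF motif GGGCGG, the NF-Y motif CCAAT, the ETS motif GGAAGT, the AP-1 motif TGANTCA, the TEAD motif ACATTCC, the TATA box TATAAA and the CArG box of SRF. A shorter TEAD form, GGAATG, was searched too and overlaps the longer one on the opposite strand. GGGCGG was in 5 of the 10 windows, at Itga3 (both), Itga5, Itgb1 and Itgb5, against 32.7% of 32851 RefSeq promoter windows of the same length. GGAAGT was in 3 windows (19.7% of all), CCAAT in 2 (33.8%) and GGAATG in 1, at Itgb1 (12.6%). The AP-1 motif, the longer TEAD motif, the TATA box and the CArG box were in none of the 10, against 6.75%, 3.25%, 12.4% and 1.47% of all windows. The capitals are matches of letters only. The GC content of the 10 windows ran from 50.8% at the downstream start of Itga3 to 68.4% at Itga11, with a median of 52.4% over all windows.

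The collagen-binding chain genes had 40 peaks in each list, with 5 WT-only and 5 KO-only. Itga1 lies on chromosome 13 from 114958079 to 115101964 and Itga2 from 114833081 to 114932100 on the same chromosome. Their windows overlap, and 5 peaks of each list belong to both. Itga1 had 14 WT and 15 KO peaks with 1 genotype-only peak each way, at percentiles of 3.70 in WT and 9.06 in KO. Its strongest peak in both lists was not its own start but lay 11.7 kb inside the gene, at 89.7 and 89.5, next to the start of Pelo, a gene for a ribosome rescue factor that is nested within Itga1. A weaker peak beside it, 12.5 kb from the start of Itga1, had percentiles of 51.4 in WT and 12.7 in KO.

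Itga2 had 2 WT and 4 KO summits inside its own body, in WT the fewest of the 10 genes. It had 0 WT-only and 2 KO-only peaks, which lay inside the gene 27.9 kb and 55.9 kb from the start at percentiles of 6.81 and 32.8. Neither had a WT peak within 1 kb. Its strongest region, at 82.8 and 80.4, lay at the start of the neighbouring Mocs2, 113.8 kb from its own start. Its window held 5.53 WT and 6.53 KO peaks per 100 kb, near the medians of 6.77 and 6.26 over all genes.

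Itga11, the chain of a collagen receptor typical of mesenchymal cells, lies on chromosome 9 from 62677855 to 62783979. It had 20 WT and 17 KO peaks, with 4 WT-only and 2 KO-only. The WT-only peaks all lay inside the gene, 1.8, 54.2, 81.9 and 97.7 kb from the start, and the highest of them, nearest the start, was at percentile 35.3. The KO-only peaks lay outside it and were stronger. One ran from 62640837 to 62642024, 36.4 kb before the start, at percentile 75.3, the highest of any genotype-only peak at the 10 genes, with a WT peak 83 bp away. The other ran from 62786780 to 62787444, beyond the 3′ end of the gene, at 61.4 and 8626 bp from the nearest WT peak. Its direction depended on strength: by number WT-only peaks led by 2, but in the upper 50% by signal 2 KO-only peaks stood against 0 WT-only peaks. Its strongest peak, at 99.4 and 99.5, was at the start of the neighbour Fem1b.

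Itga3, the laminin-binding chain gene, lies on chromosome 11 from 95044475 to 95076844. It had 22 WT peaks with 2 WT-only and 23 KO peaks with 3 KO-only. Only 3 WT and 4 KO summits lay in the gene body, and 19 in each list lay in its flanks. The WT-only peak of higher rank (35.2) lay 1.4 kb before the start, 637 bp from the nearest KO peak. The KO-only peaks lay inside the gene (3.85), 35.6 kb before its start (5.05) and at the edge of the window (31.2). Its genotype-only peaks were thus all weak, and the strongest region, at 97.8 and 97.3, was the start of Pdk2, a kinase gene beside it.

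The window of Itga5, the fibronectin receptor chain gene, was the most densely covered among the members. Itga5 lies on chromosome 15 from 103344286 to 103366791 and had 36 WT and 29 KO peaks. Only 6 WT and 5 KO summits lay in the gene body, and 30 and 24 lay in the flanks. The window also reaches Copz1, Gpr84, Gtsf1 and Zfp385a, so its peak number is not that of Itga5 alone. The window held 29.4 WT and 23.7 KO peaks per 100 kb, equalled or exceeded by few genes: 99.9% and 99.5% of all protein-coding genes were at or below these values. Only 3 WT peaks and 1 KO peak were genotype-only, at percentiles of 19.6 to 26.6 and 8.93. KO had fewer peaks, yet they covered 33.5 kb against 32.2 kb in WT. Upstream of the merged start, WT and KO both had a strong peak 11.7 kb before the start, at 98.2 and 98.0.

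Merging of the Itga5 kind was seen at 3 further places in its window. At 103300370 to 103302812 a KO peak of 2443 bp (88.1) overlapped 3 WT peaks (69.4, 70.3 and 32.1). KO peaks of 1565 bp (summit inside Zfp385a) and 2595 bp (summit inside Itga5) each overlapped 2 WT peaks. The reverse was seen at 103341996 to 103344091, beyond the 3′ end of the gene, where a WT peak of 2096 bp (86.8) overlapped 2 KO peaks (75.3 and 53.5). Over the 10 genes, 156 groups of overlapping peaks held peaks of both lists. Of these, 136 (87.2%) joined 1 WT with 1 KO peak, against 93.1% of 81460 such groups genome-wide. In 10 groups several WT peaks met 1 KO peak (6.41%, against 2.98% of all groups). In 8 groups 1 WT peak met several KO peaks (5.13%, against 3.47%), and in 2 groups there were several of each (1.28%, against 0.447%). Both directions therefore occurred at these genes, each with a share above that of the genome. Several WT peaks meeting 1 KO peak was the more common direction here, and the less common one in the genome. The difference was not tested.

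Itgav, the gene of the chain for RGD-containing ligands such as vitronectin, lies on chromosome 2 from 83722303 to 83806917. It had 22 WT peaks with 3 WT-only and 19 KO peaks with 0 KO-only. The WT-only peaks were weak, at percentiles of 6.03 and 6.45 about 10 kb before the start and of 10.4 at 53.8 kb inside. A region upstream of the gene differed more in extent than in presence. From 83699390 to 83701385 WT had a peak of 1996 bp at 89.7, and KO had 2 peaks within it, of 439 bp at 32.0 and 603 bp at 49.7. A narrow peak 57.7 kb inside the gene stood at 40.4 in WT and 1.34 in KO. Of its 11 peaks with a single partner, 10 ranked higher in WT, and 8 still did when both lists were ranked over the same 75840 pairs. Members differed in this: at Itga5, 14 of 20 such peaks ranked higher in KO in either ranking.

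**Figure D3:**
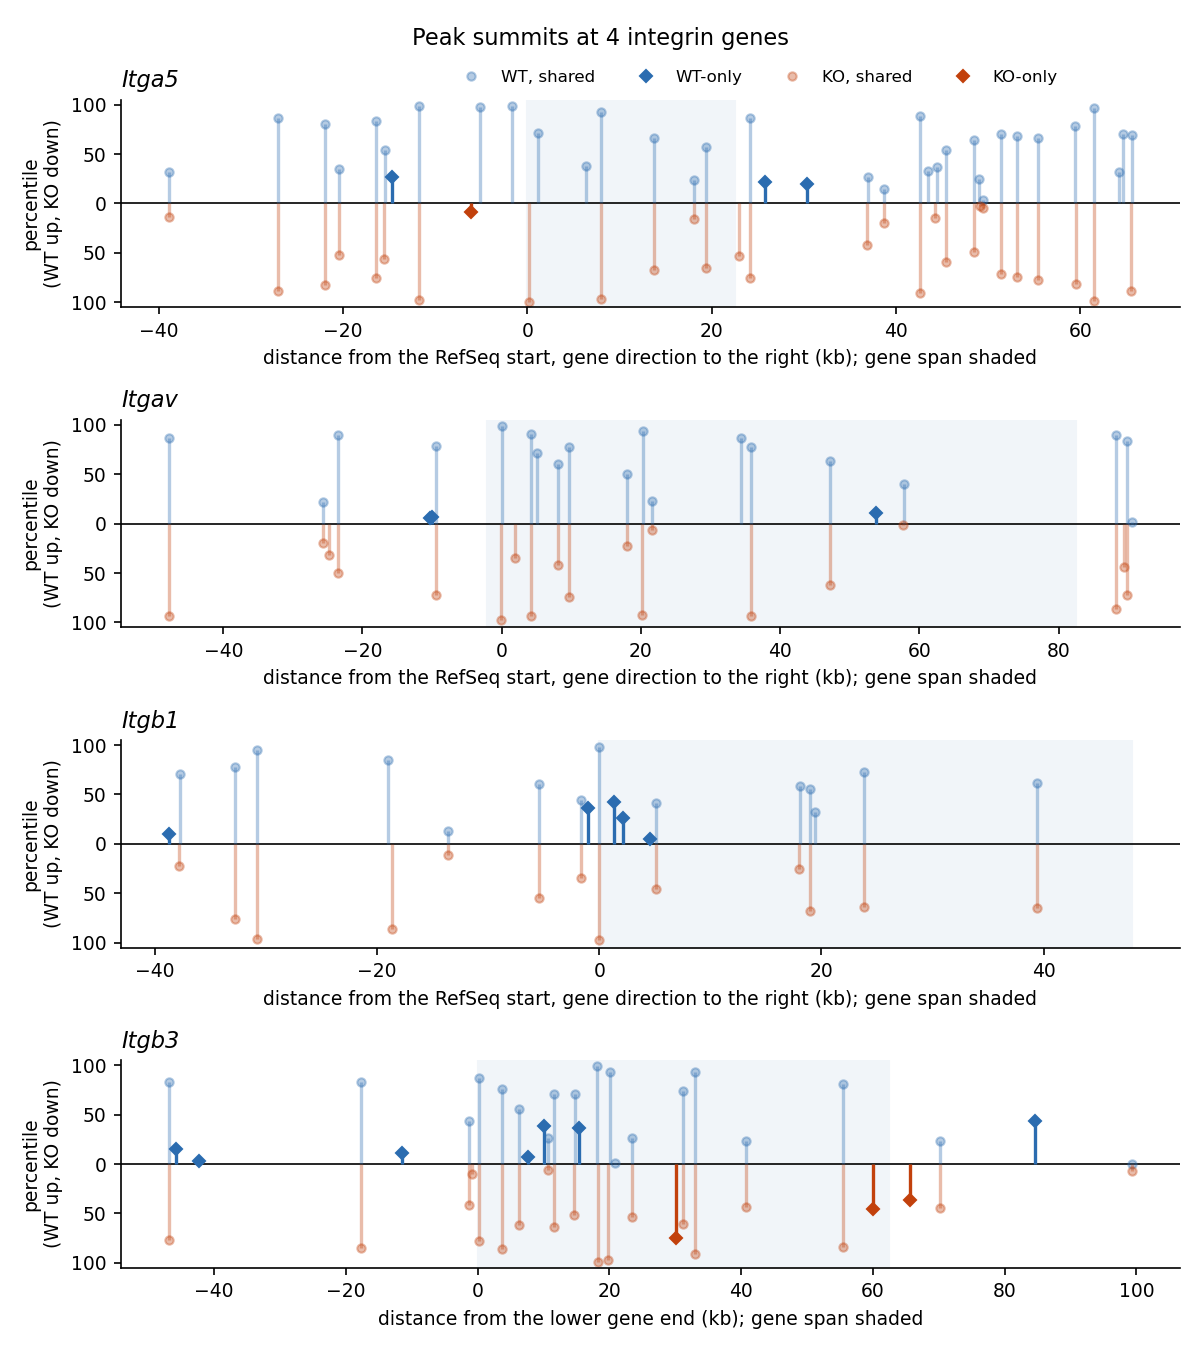
Peak summits at Itga5, Itgav, Itgb1 and Itgb3 by distance in kb from the RefSeq start (for Itgb3 from its lower end), with the gene span shaded. Stem height is the signal percentile, WT upward in blue and KO downward in orange, and diamonds mark genotype-only peaks. The WT-only diamonds of Itgb1 stay at or below 42.3, while the tallest KO-only diamond at Itgb3 reaches 74.4.

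Of the beta chain genes, Itgb1 and Itgb3 held most of the WT-only peaks. The 4 genes together had 80 WT and 70 KO peaks, with 17 WT-only and 6 KO-only. The WT-only share was 26.3% at Itgb1, 26.9% at Itgb3, 8% at Itgb5 and 30% at Itgb8, against 20.4% of all WT peaks. The KO-only share was 0% at Itgb1, 13.6% at Itgb3, 7.41% at Itgb5 and 12.5% at Itgb8, against 13.4% of all KO peaks. Itgb1, whose product pairs with most alpha chains of the set, lies on chromosome 8 from 128685654 to 128733579. It had 19 WT peaks with 5 WT-only and 13 KO peaks with 0 KO-only, the largest excess in either direction among the 10 genes. Of all protein-coding genes, 3.84% had a larger WT-only excess and 2.56% the same one. This rank is by number of peaks, and the Itgb1 window held 19 WT peaks where the median over all genes was 9. The WT-only peaks of Itgb1 lay 1.0 kb before the start (36.5), then 1.4, 2.2 and 4.6 kb inside the gene (42.3, 25.9 and 4.83), and 38.7 kb before the start (9.80). All 5 had a KO peak within 1 kb, at gaps of 96 to 739 bp, and counting such peaks as shared left 0 WT-only peaks at Itgb1, where 15.6% of all WT peaks were still WT-only. The strong start peak that they surround was almost the same, spanning 128685007 to 128686831 in WT and 128685016 to 128686823 in KO.

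The region 37.8 kb before the start of Itgb1 was the pair with the largest percentile difference towards WT. Its peak ran from 128647587 to 128648548 in WT, at 71.1, and from 128647747 to 128648093 in KO, at 22.5. A nearer region was alike, with 94.8 in WT and 96.0 in KO at 30.8 kb before the start.

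Itgb3, the beta chain of a vitronectin receptor also known from platelets, lies on chromosome 11 from 104608000 to 104670476. It had 26 WT peaks with 7 WT-only and 22 KO peaks with 3 KO-only. The WT-only peaks ran from percentile 2.68 to 43.2, the highest lying beyond the upper end of the gene, within Efcab13. The KO-only peaks were at 36.8, 45.4 and 74.4. The strongest of them lay inside Itgb3 from 104637814 to 104638459, 343 bp from a WT peak. WT-only peaks were thus more numerous and KO-only peaks reached higher ranks, and between lists of equal length the count turned to 6 KO-only and 3 WT-only. The strongest region of the gene was shared, inside the gene. It spanned 104624396 to 104626645 in WT (98.9) and 104624579 to 104626916 in KO (99.5).

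Itgb5, another beta chain of vitronectin receptors, lies on chromosome 16 from 33829665 to 33949338. It had 25 WT and 27 KO peaks with 2 genotype-only peaks each way, all at or below percentile 21.6. Apart from the divided start, its widest difference was a shared region 74.2 kb inside the gene. There the peak was 390 bp wide at 35.9 in WT and 1834 bp wide at 89.7 in KO, the largest percentile difference towards KO among the pairs of the 10 genes. The strongest region of the gene, 62.3 kb from the start, was alike at 93.8 and 93.4.

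Itgb8, whose product activates latent TGF-beta together with the Itgav chain, had the fewest peaks. It lies on chromosome 12 from 119162803 to 119238276 and had 10 WT peaks with 3 WT-only and 8 KO peaks with 1 KO-only. The WT-only peaks lay 1.3 kb inside the gene (40.0) and 10.6 and 27.0 kb before it (11.3 and 1.16), and the KO-only peak lay beyond the 3′ end (31.6). Its regions mostly ranked lower in KO: of 7 peaks with a single partner 6 did, the exception being a peak 74.0 kb from the start at 3.86 in WT and 36.7 in KO. Ranked over the same pairs in both lists, 5 of the 7 were lower in KO. An upstream region 24.7 kb before the start stood at 69.8 in WT and 33.9 in KO.

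Across the 10 genes, 136 peaks had a single partner in the other list. Their summits lay close together, with a median distance of 11.5 bp, and in 125 (91.9%) they lay within 100 bp of each other, against 93.0% of all such pairs. In 81 pairs the percentile was higher in WT and in 55 it was higher in KO. Over all pairs of the genome it was higher in WT in 44964 and in KO in 30875, so the split was again that of the genome. By gene, KO led at Itga5 (14 of 20 pairs), Itgb3 (9 of 16) and Itga11 (6 of 11), and Itga1 had 6 each way. WT led at Itgav (10 of 11), Itgb8 (6 of 7), Itga3 (15 of 20), Itga2 (8 of 11), Itgb1 (8 of 12) and Itgb5 (13 of 21). Ranked over the same 75840 pairs in both lists, an alternative chosen after the data were seen, 63 of the integrin pairs were higher in WT and 73 in KO, where 37578 and 38245 of all pairs were. In that ranking WT led only at Itga3, Itgav and Itgb8. The absolute difference had a median of 6.23 percentile points, against 6.69 over all pairs. Towards KO, the second pair after that of Itgb5 lay 23.3 kb before the start of Itga11, at 25.6 in WT and 78.3 in KO, where the peak was 334 bp wide in WT and 928 bp in KO.

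**Figure D4:**
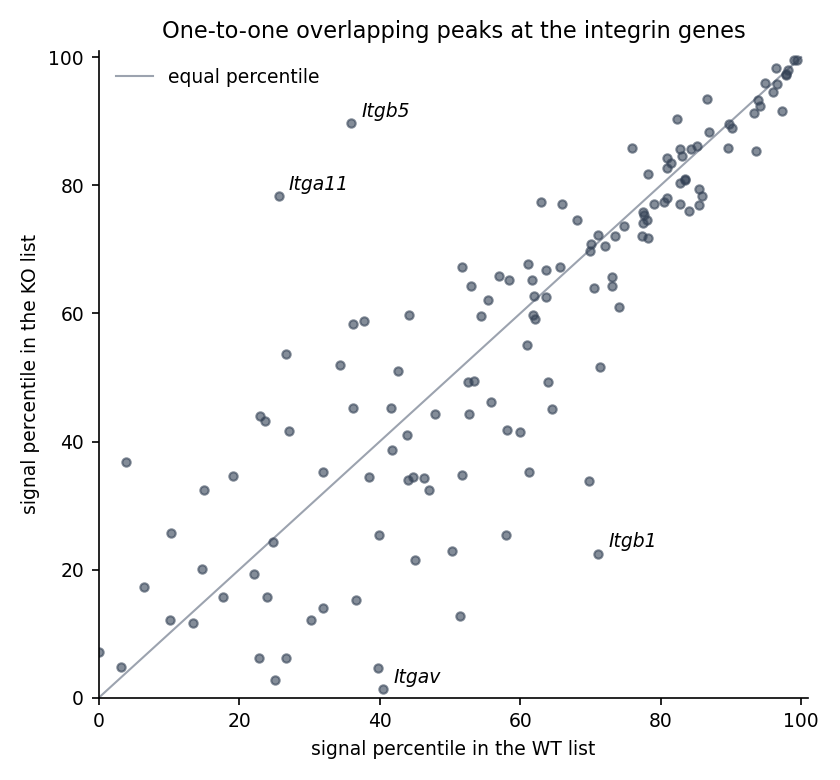
Signal percentile in the WT list (horizontal axis) against that in the KO list (vertical axis) for the 136 peaks of the integrin genes with a single partner, each point 1 pair, with the line of equal percentile. Points above percentile 60 in both lists lie mostly close to the line, and the labelled pairs are those farthest from it, at Itgb5 and Itga11 above and Itgb1 and Itgav below.

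The wider surroundings of the members lay on both sides of the genome in peak number. In the 10 Mb blocks that hold the 10 genes KO had 88.7% (Itga3) to 99.2% (Itgb3) of the WT peak number, against 92.4% over the genome. The blocks of Itgb1 and Itgav, the genes with WT-only and no KO-only peaks, had 92.7% and 92.5%.

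The other 17 integrin genes, mostly those of leukocytes, platelets, epithelia, nerve and muscle, gave a background of the same family. They had 216 WT peaks with 31 WT-only (14.4%) and 215 KO peaks with 26 KO-only (12.1%), and 10 of them had more WT-only and 6 more KO-only peaks. A start-site peak was found in both lists at 6 of 17, in WT only at Itgax (percentile 5.26), in KO only at Itgb4 (2.78), and in neither list at 9. The call at Itgb4 did not hold at other distances: with 250 bp or 2 kb on either side, 0 of the 17 had a start-site peak in KO only. Itga8, a chain for RGD-containing ligands, had 10 KO-only against 1 WT-only peak, and Itgb4, the beta chain of hemidesmosomes, had 4 against 1. In the other direction Itga4, a chain that binds fibronectin and VCAM, had 5 WT-only peaks and none in KO only. Itgb6, an epithelial beta chain, had 6 and 1. The fibroblast integrins thus differed from the rest of the family in having a start-site peak at every gene. Since they were listed as integrins of fibroblasts and the cells were fibroblasts, such a difference was partly built into the lists. This difference is described without a test, and the measure was not alike in the 2 sets. A start was given for 9 of the 10 but for 10 of the 17, and elsewhere either gene end was used. With 2 kb on either side, 9 of the 17 had a start-site peak in both lists.

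The 45 genes of integrin adhesions, the linkers, adaptors and kinases that bind integrin tails or one another, had 909 WT peaks with 146 WT-only (16.1%) and 884 KO peaks with 107 KO-only (12.1%). WT-only peaks led at 23 genes and KO-only peaks at 14. A start-site peak was present in both lists at 40 of the 45, in WT only at Ddr2, a collagen receptor kinase (32.6), and in neither list at 4. The call at Ddr2 did not hold at other distances. With 250 bp or 2 kb on either side, 0 of the 45 had a start-site peak in WT only, and with 2 kb 1 had it in KO only. The kinase genes Ptk2b, with 13 KO-only and 1 WT-only peak, and Ptk2, which encodes focal adhesion kinase, with 8 and 2, had the largest excess towards KO.

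The excess at single integrin genes depended on how peaks were compared. The number of KO-only minus WT-only peaks stayed at or below 0 under all 10 alternatives for Itga5, Itgav and Itgb1, and at or above 0 for Itga2. Not all of these could differ freely. The threshold of 4 removed 0 peaks and so repeated the reported setting. In the upper 50% by signal no WT-only peak could remain, since the highest stood at percentile 43.2. It changed sign under at least 1 alternative for Itga3, Itga11, Itgb3 and Itgb8, and at Itga1 and Itgb5, where it was 0, it ran from -1 to 2. Only 3 of the genotype-only peaks, at Itga11 (2) and Itgb3 (1), lay in the upper 50% of their list, all in KO.

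**Figure D5:**
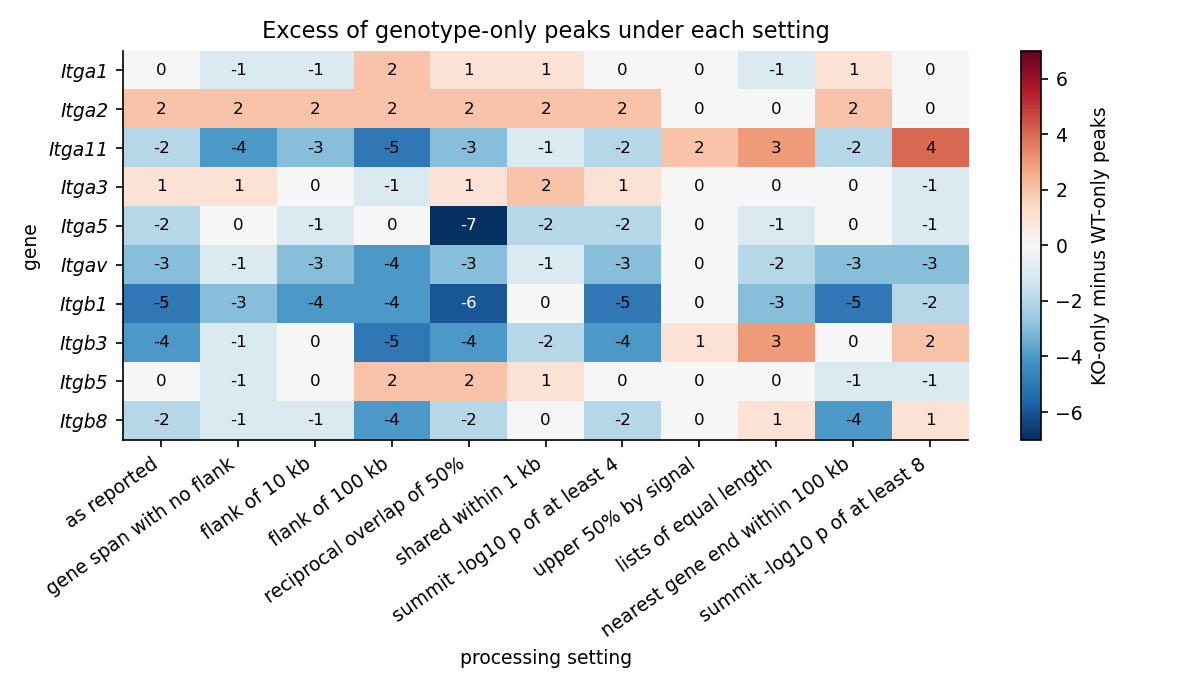
KO-only minus WT-only peaks at each integrin gene (rows) under each processing setting (columns), with the number in each cell and colour from blue (more WT-only) to red (more KO-only). Itgav and Itgb1 stay at or below 0 throughout, while Itga11 runs from -5 to 4 and Itgb3 from -5 to 3.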

How the data were processed

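ATAC-seq of 3 WT and 3 KO libraries measured open chromatin. Per the submitters' processing notes, Bowtie2 2.5.1, Genrich, deepTools 3.5.1 and GRCm38 were used; Genrich settings, any Tn5 shift and the way libraries were pooled are not given in the sources used here. As deposited by the authors, there is 1 peak list per genotype, which holds for each peak a score, a signal (an area that grows with width and has no scaling between lists), the −log10 of the summit p-value and q-value, and the summit position. Score and q-value were not used. Read totals were not given, so depth is unknown and a deeper set can hold more weak peaks. No interval was computed.

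Signal was used as a percentile within its own list. Coordinates are 1-based, GRCm38. Sharing was computed with pandas 2.3.3 and numpy 2.4.6 under Python 3.11.15, and tested on a simulated list, where it matched bedtools 2.31.1. Starts and promoter sequences are from RefSeq GRCm38.p6. Where a gene had no start in that table, either gene end was used. The groups are those of the labels. Genes and lists were chosen with earlier results of these data known. All 10 members were named, with per gene the start-site peak, the strongest peaks and up to 3 genotype-only peaks per direction, the most unequal pairs, and, of other lists, genes with a start-site peak in 1 list or the largest excess, of which some are not reported here; some further peaks were named after their values were seen. Alternatives varied the flank, the overlap, the threshold, list length and peak assignment.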

Additional observations from a re-analysis of the deposited data

How the results depend on the processing

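No paired analysis was possible because each genotype has 1 combined list, and for the same reason no library could be left out. All 10 start-site calls held with 250 bp and with 2 kb on either side. Against 30 WT-only peaks at the integrin genes, there were 15 in gene spans with no flank, 61 with a reciprocal overlap of 50% (30.5%, against 33.6% of all WT peaks), 12 when a peak within 1 kb counted as shared (6%, against 15.6%), 0 in the upper 50% by signal (against 3.49%), 17 with lists of equal length (11.2%, against 15.8%) and 18 with a summit −log10 p of at least 8 (12.2%, against 18.4%). Against 15 KO-only peaks, there were 6 in gene spans, 23 with a flank of 100 kb, 42 with reciprocal overlap (23.2%, against 28.1% of all KO peaks) and 3 in the upper 50% (2.83%, against 2.41%). There were 12 when a peak within 1 kb counted as shared (6.63%, against 10.7%) and 16 with the threshold of 8 (11.3%, against 13.4%). The WT-only and KO-only counts were thus equal or nearly so under these last 2 settings, and equal with lists of equal length. In gene spans fewer peaks were counted, 93 WT and 82 KO, and the shares were 16.1% and 7.32%. In the upper 50% no WT-only peak was left because the highest of them stood at percentile 43.2. The cause of the other shifts was not tested. The planned threshold of 4 removed 0 peaks, since the lowest summit value was 4.94 in WT and 4.87 in KO, so 8 was added after seeing the data. KO-only minus WT-only peaks turned from 1 to -1 at Itga3 with a flank of 100 kb and with the threshold of 8. They turned from -2 at Itga11 to 2 in the upper 50%, 3 with lists of equal length and 4 with the threshold of 8, and from -4 at Itgb3 to 1, 3 and 2 under the same settings. At Itgb8 they turned from -2 to 1 with lists of equal length and with the threshold of 8. Without replicates or read totals, weak peaks limit what these lists can show.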

Other observations

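Starts of neighbouring genes supplied several of the strongest regions in the integrin windows. The start of Fem1b stood at percentile 99.4 in WT and 99.5 in KO, that of Pdk2 at 97.8 and 97.3, and that of Umps, beside Itgb5, at 90.1 and 89.0. In all, 13 WT and 11 KO peaks of the windows lay within 1 kb of the start of another gene (the start of Itga2 in the window of Itga1 included), of which 2 WT peaks and 0 KO peaks were genotype-only. The WT-only peaks of this kind were at Zfp385a, at 21.7, and at Gm11665, at 15.3.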
